A study of Bos taurus with 28 samples.

Results

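The keratin family was examined in cow liver through the 10 array probes, of 13824 on the array, whose annotated gene symbol is KRT followed by a number. These probes stand for 9 genes: KRT4, KRT8, KRT14, KRT15, KRT17, KRT18, KRT19, KRT20 and KRT25, with 2 probes for KRT15 and 1 for each of the others. A probe needed a value in at least 5 cows of each group to be tested, which 8 probes of 7 genes had. KRT4 and KRT20 had values in 4 ketotic and 4 healthy cows each and were described without a test. KRT7, the usual bile duct partner of KRT19, and KRT5, the partner of KRT14, were not analysed here as genes of their own; 1 further probe carried the symbols KRT5 and KRT3 together and was not counted as a member. Keratins resemble each other in sequence, and whether the transcript of one member also bound the cDNA of another was not tested.

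Liver RNA came from 14 Holstein cows that had calved more than once and had passed a physical examination on day 4 after calving. In the 7 ketotic cows, ketosis was induced by cutting feed to 50% of each cow's earlier intake. The restriction began on day 5 by the study's design text and on day 4 by the sample labels, and it ran until clinical ketosis or at the latest day 14. The 7 healthy cows, the randomly assigned controls of the same trial, were fed ad libitum by the labels of 6 of them; those of healthy cow 7 give its group and no feeding. Each cow's liver RNA was hybridised on 2 two-colour cDNA arrays with the dyes Cy3 and Cy5 exchanged, always against one reference RNA made from cattle tissues. The labels do not say which tissues it held.

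Keratins are intermediate filament proteins of epithelial cells. A filament is built from pairs of one type I and one type II keratin, so the members are used in partnerships: KRT8 (type II) with KRT18 (type I) in simple epithelia, and KRT5 (type II) with KRT14 (type I) in the basal layer of stratified epithelia such as epidermis. In mouse and human liver, hepatocytes carry KRT8 and KRT18 as almost their only keratins, and bile duct cells add KRT7 and KRT19. The hepatocyte filaments are known for protecting the cell against mechanical and toxic injury, and in mouse and human the pair is induced in many forms of liver injury. Among the other members, KRT15 belongs to basal keratinocytes, KRT17 to skin appendages and injured epidermis, KRT25 to the inner root sheath of the hair, KRT4 to the lining of mouth and oesophagus, and KRT20 to intestinal and bladder epithelium. In the cattle gene order of RefSeq (assembly ARS-UCD2.0), KRT8 and KRT18 are direct neighbours with KRT4 on the same chromosome, although KRT18 is a type I keratin, while KRT14, KRT15, KRT17, KRT19, KRT20 and KRT25 share another chromosome, on which KRT15 and KRT19 are direct neighbours.

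All values below are log2 ratios of liver over reference, with 0 set at the median spot of the array, averaged over the 2 arrays of a cow. A value of -1 means that a gene's liver signal relative to the reference was 2-fold below that of the median spot. Such a ratio compares a gene between cows, but it gives no order of abundance between genes, since the reference holds each gene at its own unknown level. The direction of the ratio is likely, not certain. It rests on the dyes in the titles and on hepatocyte genes, whose median lay above 0 on 28 of 28 arrays (2.54 to 8.14) once the sign of the Cy3 liver arrays was turned. Of the 13 hepatocyte markers tested, 13 lay above the reference, where 34.7% of all genes did. Because the direction was judged on hepatocyte genes, this count is no further support for it. Healthy cow 7 stood apart: its values correlated with those of the other cows at 0.363 to 0.462 across genes, against at least 0.716 among the others, and its median hepatocyte marker ratio, 3.14, was the lowest of the 14 cows. Results are therefore also given without it where they change. Arrays of ketotic cows had more spots with no ratio, 16.5% ± 4.49 against 11.9% ± 2.80 in healthy cows (SD, n = 7 each; two-sided exact permutation test over cows, p = 0.0338, adjusted over 2 measures 0.0338). They also had a wider spread of ratios, with a median absolute deviation of 1.38 ± 0.173 against 1.12 ± 0.123 in healthy cows (p = 0.00874, adjusted 0.0175, same exact test).

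In ketotic liver 1 of the 7 tested keratins, KRT8, was lower than in healthy liver, and no keratin was higher, at an adjusted p under 0.05 (limma, Benjamini-Hochberg over all 6958 genes tested). Across all genes 12% passed in either direction, 11.1% lower and 0.992% higher, so the keratins' count is near the background and says nothing particular about the family. At an unadjusted p under 0.05, 1 keratin was higher (KRT14) and 2 were lower (KRT8 and KRT18), against 4.57% and 23% of all genes. Fitted per probe, KRT8 was again the single call, against 9.3% of probes in either direction and 8.2% lower. Without healthy cow 7 it was so too, against 17% of genes lower. Of the 7 differences, 4 were below 0, and their median was -0.43 on the log2 scale, against -0.16 over all genes. In bulk tissue, fewer cells of a type and less RNA per cell cannot be told apart, and this holds for each value that follows.

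KRT8, the type II keratin of hepatocytes, had log2 ratios of -3.43 at the lowest, -2.98 at the median and -2.65 at the highest among the 7 ketotic cows. Among the 7 healthy cows they were -2.58 at the lowest, -2.23 at the median and -1.20 at the highest. The groups did not overlap in the means over a cow's 2 arrays: each of the 7 ketotic cows lay below each of the healthy ones. Over all genes, 5.04% had ketotic cows wholly below healthy cows, and 5.46% of those with a value in every cow. The means were -3.04 ± 0.294 in ketotic and -2.07 ± 0.493 in healthy cows (SD, n = 7 each), a difference of -0.97 (SE 0.215, 95% interval -1.43 to -0.52), or 1.96-fold lower in ketotic liver. The limma adjusted p was 0.0114, and a two-sided exact permutation test over all splits of the cows gave p = 0.000583, the smallest it can give. A more negative difference was seen in 3.49% of genes; were the ratios to run the other way, the sign of each difference would turn, and KRT8 would be higher in ketotic liver with 3.49% of genes above it. Healthy cow 7 held the highest KRT8 value, and without it the difference was -0.83 (SE 0.177, limma adjusted p = 0.00628).

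**Figure D1:**
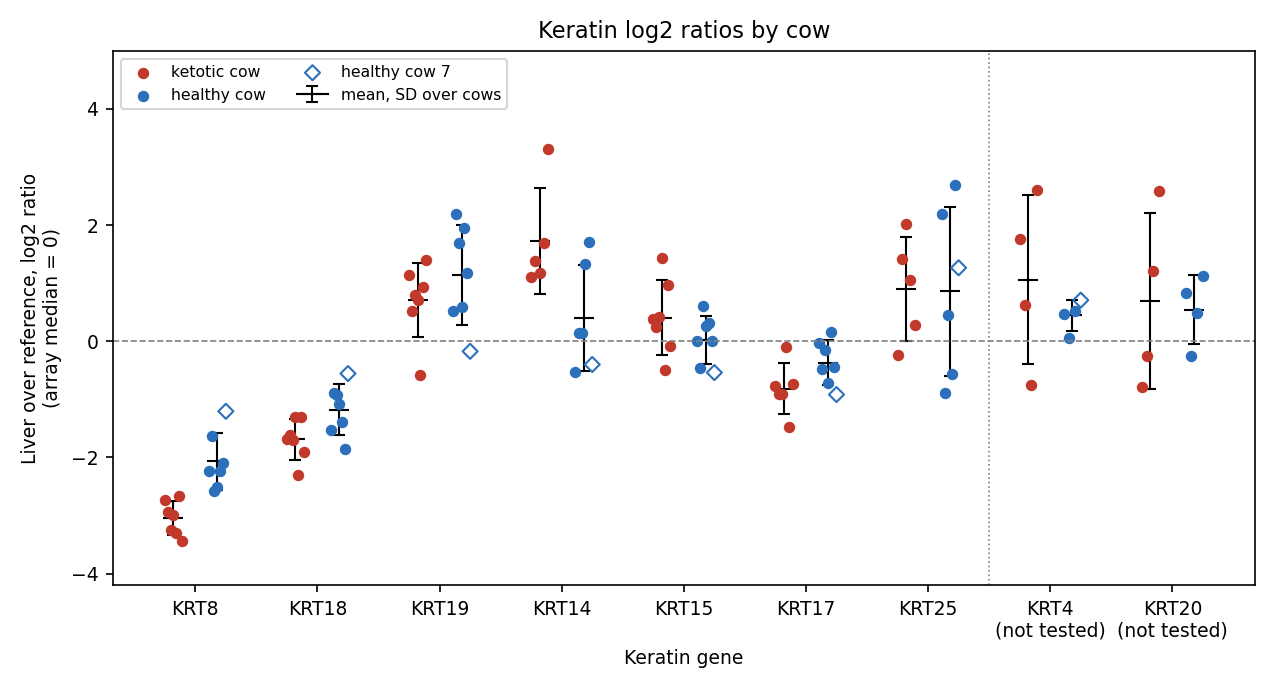
Log2 ratios of liver over reference (y axis, array median at 0) for each keratin gene, 1 point per cow, ketotic cows in red at the left of each pair and healthy cows in blue at the right; the horizontal tick and bar are the mean and SD over cows, and the open diamond is healthy cow 7. KRT8 is the member whose groups do not overlap; KRT18, KRT19, KRT14, KRT15, KRT17 and KRT25 overlap, as do KRT4 and KRT20, which were measured in 4 cows of each group and not tested.

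The lower KRT8 value stood on both dyes. With liver in Cy3, the mean was -3.17 ± 0.488 in ketotic and -2.09 ± 0.423 in healthy cows; with liver in Cy5 it was -2.92 ± 0.266 in ketotic and -2.04 ± 0.581 in healthy cows (SD, n = 7 arrays each). On the Cy5 arrays alone the difference was -0.87 with a limma adjusted p of 0.0948, in a fit in which 1 gene of all passed higher and 8 lower. The spread and the empty spots of the arrays, given above, moved with the groups, and KRT8 was fitted with each of them taken into account. When every array was scaled to the same spread, the difference was -0.47 (limma adjusted p = 0.238), in a fit that called 483 genes lower, against 769 as reported. With the empty spots of a cow's arrays as a covariate it was -0.77 (adjusted p = 0.115), in a fit that called 137 genes lower. The difference stayed negative under all 16 alternative settings, from -1.40 to -0.47, and passed under 13 of them.

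**Figure D2:**
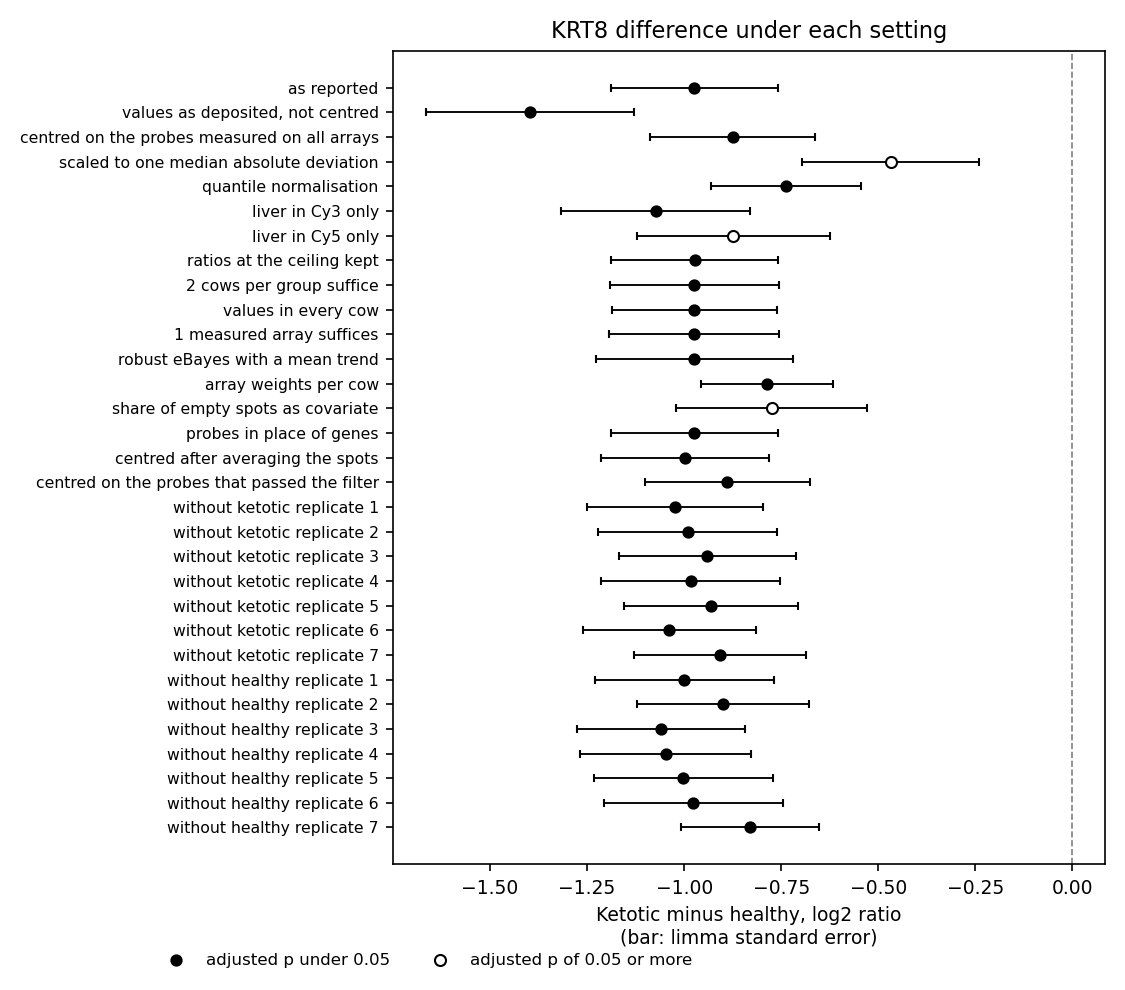
Ketotic minus healthy difference of KRT8 (x axis, log2 ratio; bars are limma standard errors) as reported, under 16 other settings and with each of the 14 cows left out, down the page. All points lie below 0; the open points, at adjusted p of 0.05 or more, are the fits with 1 common spread (-0.47), with Cy5 arrays only (-0.87) and with empty spots as covariate (-0.77).

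KRT18, the type I partner that pairs with KRT8, had a difference in the same direction that did not pass. Its log2 ratios were -2.31 at the lowest, -1.68 at the median and -1.30 at the highest in ketotic cows, and -1.86, -1.08 and -0.56 in healthy cows. The groups overlapped, although each of the 7 ketotic cows lay below the healthy mean. The means were -1.69 ± 0.349 in ketotic and -1.18 ± 0.441 in healthy cows (SD, n = 7 each), a difference of -0.51 (SE 0.211, 95% interval -0.96 to -0.06). The exact permutation test gave p = 0.0332, and the limma p adjusted over all genes was 0.129. Healthy cow 7 again had the highest value; without it the difference was -0.41 (limma adjusted p = 0.164). With all arrays at 1 spread it was -0.24 (adjusted p = 0.484), with empty spots as covariate -0.15 (0.758), and as deposited -0.94 (0.0175).

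Because both values of a cow come from the same arrays, KRT8 minus KRT18 within a cow does not depend on how an array is centred. This quantity was chosen after the values were seen. It ran from -1.69 through a median of -1.35 to -0.99 in ketotic cows and from -1.65 through -0.73 to -0.23 in healthy cows. The means were -1.36 ± 0.257 in ketotic and -0.89 ± 0.489 in healthy cows (SD, n = 7 each), so KRT8 was lower relative to KRT18 in ketotic liver by 0.46 on the log2 scale, with a two-sided exact permutation p of 0.0460. The 7 ketotic cows all lay below the healthy mean, but the groups overlapped. The call was lost when any 1 of 10 of the 14 cows was left out, ketotic cows 2, 3, 4, 6 and 7 and healthy cows 1, 2, 5, 6 and 7 (exact permutation p up to 0.0938; 0.0845 without healthy cow 7, where the difference was -0.42), on the Cy5 arrays alone (-0.36, p = 0.223) and with all arrays scaled to 1 spread (-0.23, p = 0.344). On the Cy3 arrays the difference was -0.57 (exact permutation p = 0.0227).

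The relation of KRT8 to KRT18 across the cows of a group did not pass in either group. In the 7 ketotic cows Pearson's r was 0.694 (exact permutation p = 0.0778) and Spearman's rho 0.714 (p = 0.0881). In the 7 healthy cows r was 0.455 (exact permutation p = 0.315) and rho 0.286 (p = 0.556). Adjusted over these 2 relations, the p of r was 0.156 in ketotic and 0.315 in healthy cows, and that of rho 0.176 in ketotic and 0.556 in healthy cows. Without the 2 cows farthest from the median of KRT18, r was 0.823 in ketotic and 0.135 in healthy cows. Both genes of a pair share the arrays and their centring.

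**Figure D3:**
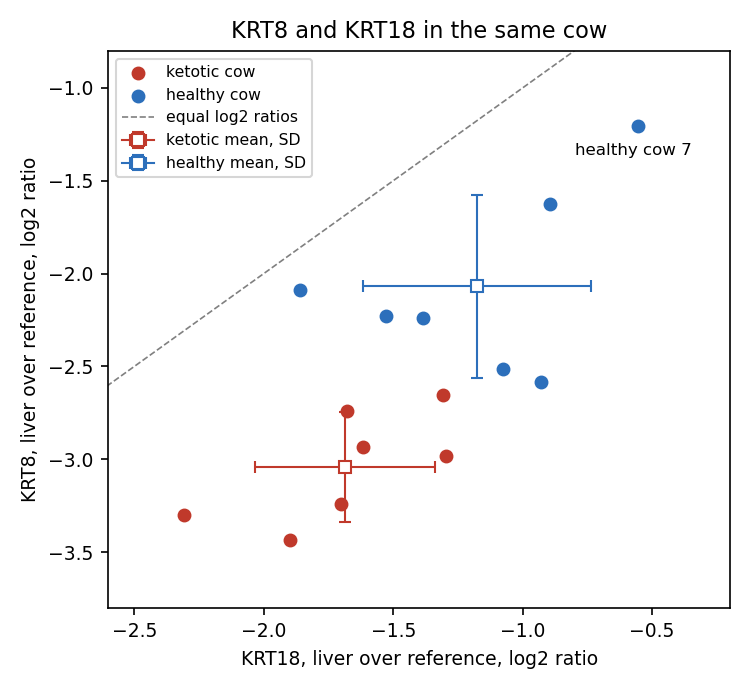
KRT8 (y axis) against KRT18 (x axis) as log2 ratios of liver over reference, 1 filled point per cow, ketotic in red and healthy in blue; open squares with bars are group means and SD, and the dashed line marks equal ratios. All cows lie below the line, and the ketotic mean, -3.04 for KRT8 and -1.69 for KRT18, lies below and to the left of the healthy mean, -2.07 and -1.18.

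KRT19, the type I keratin of bile duct cells, did not pass. Its log2 ratios were -0.58 at the lowest, 0.80 at the median and 1.40 at the highest in ketotic cows, and -0.17, 1.18 and 2.19 in healthy cows. The ranges overlapped widely, and the difference was -0.43 (SE 0.370, 95% interval -1.22 to 0.35; limma adjusted p = 0.487; exact permutation p = 0.307). In this gene healthy cow 7 was the lowest healthy cow, where it was the highest for KRT8 and KRT18. Of the 8 bile duct markers tested, KRT19 among them, 0 passed in either direction in limma, against 12% of all genes. At an unadjusted p under 0.05, 0 of them passed, against 27.5% of all genes. Of the 7 still testable without healthy cow 7, again with KRT19, 1 fell, ANXA4, a calcium-binding annexin (-0.52, limma adjusted p = 0.0454). In that fit 17% of all genes fell.

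KRT14, the type I keratin of basal epidermal cells, had the largest positive difference among the keratins, without passing. In the 5 ketotic cows with a value its log2 ratios were 1.10, 1.17, 1.37, 1.69 and 3.30. In the 6 healthy cows they ran from -0.54 through a median of 0.15 to 1.71. All 5 ketotic cows were above the healthy mean, but 1 of them was above the highest healthy cow, so the ranges overlapped. The means were 1.73 ± 0.910 in ketotic cows (SD, n = 5) and 0.40 ± 0.918 in healthy cows (SD, n = 6), a difference of 1.33 (SE 0.486, 95% interval 0.27 to 2.38), or 2.51-fold. The exact permutation test over 462 splits gave p = 0.0390, and the limma p adjusted over all genes was 0.0954. It passed in 2 of 15 settings in which it could be fitted: at 1.69 (adjusted p = 0.0494) when 1 measured array of a cow sufficed, and at 1.40 (0.0444) with weights per cow. With empty spots as a covariate the difference was 0.51 (adjusted p = 0.542).

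KRT14 was thinly measured, with a ratio on 37 of 56 spots, and its arrays varied. With liver in Cy5 it averaged 2.35 ± 0.610 in 5 ketotic cows and 0.20 ± 0.995 in 7 healthy cows. With liver in Cy3 it averaged 1.65 ± 1.56 in 7 ketotic cows and 0.64 ± 1.05 in 6 healthy cows (SD over arrays). Of the 12 listed markers of skin or mucosa surface, 4 could be tested, KRT14 itself, IVL, PERP and SFN. Of these, 1 rose and 1 fell, where 0.992% of all genes rose and 11.1% fell. Involucrin (IVL), the precursor of the cornified envelope, rose by 1.70 (SE 0.366, limma adjusted p = 0.0121). IVL missed the threshold on Cy3 arrays alone (0.72, adjusted p = 0.615), on Cy5 arrays alone (2.03, 0.0691), with ceiling ratios kept (0.99, 0.401), when 1 measured array sufficed (adjusted p = 0.401) and with empty spots as covariate (1.13, 0.108). PERP, a desmosome-associated membrane protein, fell by 0.82 (SE 0.165, adjusted p = 0.00754). Stratifin (SFN) had a difference of -0.12 (adjusted p = 0.770). The median of the 4 genes, KRT14 included, ran per cow from 0.32 to 1.07 in ketotic and from -1.13 to 1.43 in healthy cows. Whether cells of another epithelium contributed to the KRT14 signal was not tested.

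KRT15, a keratin of basal keratinocytes and the gene next to KRT19, gave a different answer from each of its 2 probes. The first probe had a difference of 0.0054 (SE 0.312, limma adjusted p over probes 0.993). The second ran from -0.02 through 0.97 to 1.92 in 5 ketotic cows and from -0.55 through 0.29 to 0.62 in 5 healthy cows, a difference of 0.83 (SE 0.346, adjusted p = 0.155). In the second probe 4 of 5 ketotic cows lay above the highest healthy cow. The mean over both probes had a difference of 0.38 (SE 0.273, limma adjusted p = 0.397), and its sign turned under 1 other scaling and without any 1 of 3 healthy cows, so no direction is given for KRT15.

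KRT17, a keratin of skin appendages and wounded epidermis, had log2 ratios of -1.48 at the lowest, -0.84 at the median and -0.09 at the highest in 6 ketotic cows, and -0.92, -0.45 and 0.17 in 7 healthy cows. The difference was -0.45 (SE 0.226; limma adjusted p = 0.218; exact permutation p = 0.0752), and the ranges overlapped. KRT25, a hair root sheath keratin, ran from -0.24 through 1.06 to 2.01 in 5 ketotic cows and from -0.88 through 0.86 to 2.69 in 6 healthy cows, with a difference of 0.05 (SE 0.647, 95% interval -1.36 to 1.45; adjusted p = 0.971). That interval is wide enough to hold a difference as large as that of KRT8 in either direction. KRT20, the intestinal keratin, was -0.78, -0.25, 1.22 and 2.59 in 4 ketotic cows, and -0.25, 0.48, 0.83 and 1.12 in 4 healthy cows. KRT4, the oesophageal keratin, was -0.74, 0.63, 1.76 and 2.60 in 4 ketotic cows, and 0.06, 0.48, 0.53 and 0.71 in 4 healthy cows. In both untested genes the ketotic values spread to either side of the healthy ones.

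Set against the reference, 6 of the 7 tested keratins differed from the median spot, against 81% of all genes; 3 were above and 3 below it, against 34.7% of genes above and 46.4% below. KRT8 was the lowest at -2.55 (SE 0.107, limma adjusted p = 9.39e-12), a liver over reference ratio 5.88-fold below the median spot; 2.9% of genes were lower still. Were the direction of the ratios the other way, KRT8 would be the highest keratin and these 2.9% of genes would lie above it. KRT18 followed at -1.43 (SE 0.106, adjusted p = 4.48e-09), 2.70-fold below. Both were below 0 in 14 of 14 cows and on 28 of 28 arrays, from -3.77 to -1.03 for KRT8 and from -2.47 to -0.31 for KRT18. KRT17 was at -0.59 (SE 0.113, adjusted p = 1.96e-04) and below 0 in 12 of 13 cows; on Cy5 arrays alone it missed the threshold at -0.35 (adjusted p = 0.177), and as deposited it was -1.14.

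The members above the reference were KRT14 at 1.06 (SE 0.243, limma adjusted p = 0.00126), KRT19 at 0.92 (SE 0.185, adjusted p = 2.54e-04) and KRT25 at 0.88 (SE 0.324, adjusted p = 0.0228). They were above 0 in 9 of 11, 12 of 14 and 8 of 11 cows, and KRT25 missed the threshold without healthy cow 1 (0.75, adjusted p = 0.0503). On values as deposited, where 0 is not the median spot, none of them passed: KRT14 stood at 0.46 (adjusted p = 0.0821), KRT19 at 0.34 (0.144) and KRT25 at 0.35 (0.254). These 3 ratios lay closer together than their standard errors allow to order. KRT15 was at 0.22 (SE 0.136, adjusted p = 0.150), with its first probe at -0.35 and its second at 0.61.

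The ratio of KRT19 to the reference depended on the dye. With liver in Cy3 it averaged 1.76, and with liver in Cy5 0.079; the Cy3 array was higher in 14 of 14 cows, by 1.68 ± 0.782 (SD, n = 14 cows). It was above 0 on 14 of 14 Cy3 arrays and on 8 of 14 Cy5 arrays, and on the Cy5 arrays alone it did not differ from the median spot by the test (limma adjusted p = 0.767). KRT4 behaved alike, with 1.66 in Cy3 and -0.15 in Cy5 and the Cy3 array higher in 8 of 8 cows. The probe carrying both KRT5 and KRT3 had the widest gap, 3.35 in Cy3 and -0.42 in Cy5, with Cy3 higher in 10 of 10 cows. KRT8, at -2.63 in Cy3 and -2.48 in Cy5, and KRT18, at -1.49 and -1.38, hardly moved with the dye. Averaging the swapped arrays balances such a dye effect in every cow, and each group holds both orientations equally.

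**Figure D4:**
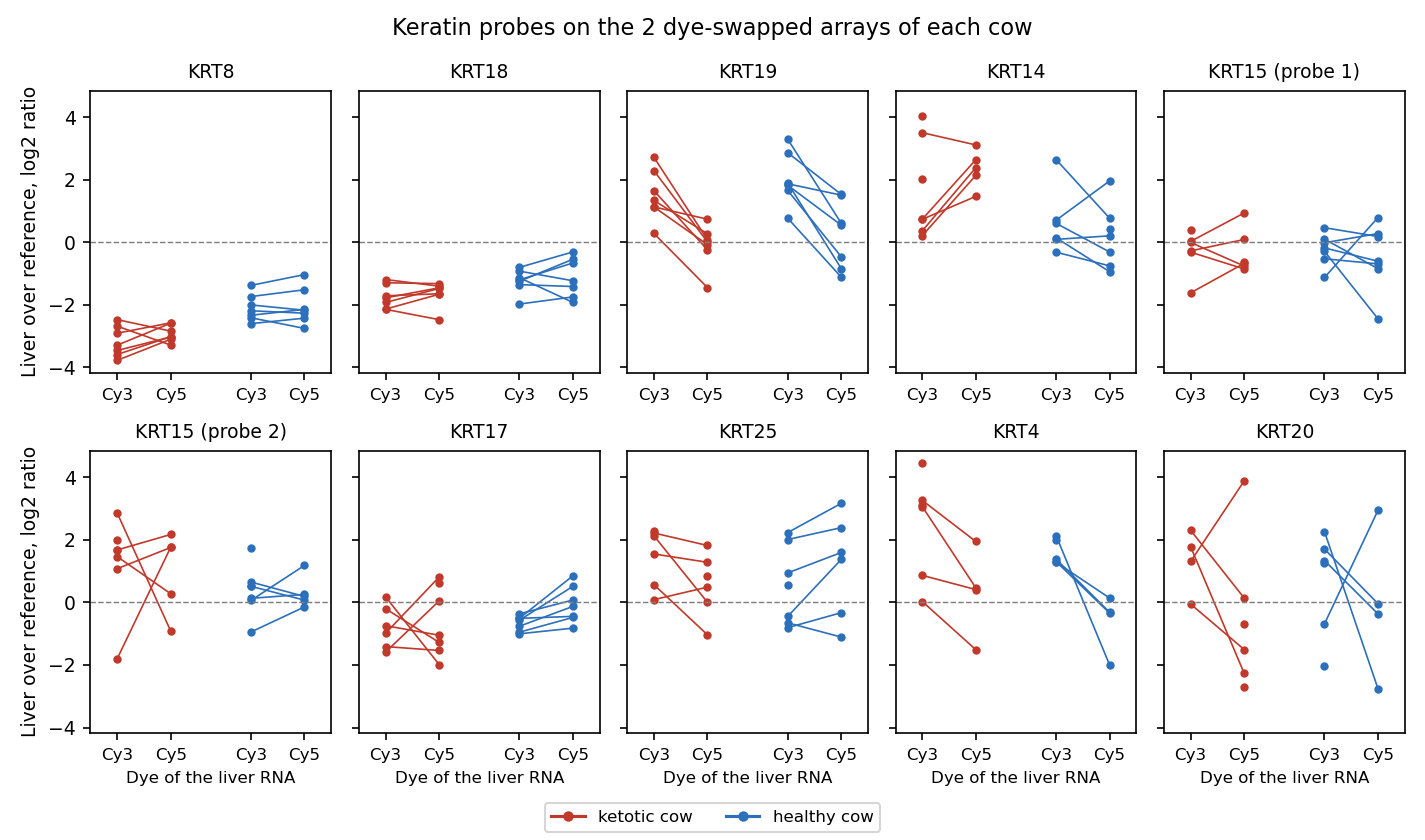
Log2 ratios of liver over reference (y axis) for the 10 keratin probes, 1 panel each, with a line joining the Cy3 and the Cy5 array of a cow; ketotic cows are red at the left and healthy cows blue at the right of a panel, and a point stands alone where the other array has no ratio. KRT8 and KRT18 lie below 0 on all arrays, while the KRT19 lines drop from Cy3 to Cy5 in all 14 cows.

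Among genes that anchor or accompany keratin filaments, 2 of 11 tested desmosome and linker genes fell and none rose, where 11.1% of all genes fell: PERP, given above, and desmoplakin (DSP), which ties keratin filaments to the desmosome (-0.65, SE 0.203, limma adjusted p = 0.0494). Plectin (PLEC), the linker of intermediate filaments to other structures, had a difference of -0.09 (adjusted p = 0.707), and plakoglobin (JUP) 0.14 (adjusted p = 0.576). The 11 differences had a median of -0.25, and 9 of them were below 0, against 4533 of 6958 over all genes. At an unadjusted p under 0.05, 3 were lower and 0 higher, against 23% and 4.57% of all genes. Besides PERP and DSP this was PKP4 (-0.67, limma adjusted p = 0.116). Under the other settings the number that fell ran from 0 to 5. It was 0 on Cy5 arrays alone and with empty spots as covariate, and 5 on values as deposited. On Cy3 arrays alone 1 gene of this list rose. DSP lost its call when any 1 cow other than healthy cow 7 was left out. Without healthy cow 7, 3 of the 11 fell, where 17% of all genes fell, the third being desmocollin 2 (DSC2; -0.86, adjusted p = 0.0277). Of the 7 epidermal differentiation genes, with a median of -0.12, 1 rose and 1 fell, where 0.992% of all genes rose and 11.1% fell. IVL was higher and S100A14, a small calcium-binding protein, lower (-0.94, SE 0.156, limma adjusted p = 0.00339). Under the other settings the number that rose was 0 or 1, and the number that fell ran from 0 to 2.

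Of the other intermediate filament genes, 0 of 6 passed in either direction in limma, where 12% of all genes passed. At an unadjusted p under 0.05, 0 of them passed, where 27.5% of all genes did. Their median difference was 0.0045. Vimentin (VIM), the filament of mesenchymal cells, had a difference of -0.03 (adjusted p = 0.956) at a ratio of -3.71 to the reference. Without healthy cow 7, GFAP, the filament of astrocytes and of stellate cells in rat liver, was higher (0.96, adjusted p = 0.0450). In that fit 1.66% of all genes rose. Of 19 tested genes of the actin and tubulin skeleton, 5 fell and none rose, where 11.1% of all genes fell and 0.992% rose, with a median of -0.36. With 1 cow left out the count was between 1 (without healthy cow 1, 5 or 6) and 7 (without healthy cow 7, where 17% of all genes fell). Under the other settings it ran from 0, on Cy5 arrays alone and with empty spots as covariate, to 12 on values as deposited. TMSB10, a thymosin that binds actin monomers, fell by 1.11 (SE 0.210, adjusted p = 0.00579), PFN1 by 0.50 (0.0275), TUBB4B by 0.72 (0.0330), ACTB by 0.49 (0.0438) and the membrane linker MSN by 0.71 (0.0488). Of these skeleton genes, TMSB10 passed under all 6 scalings tried, as did PERP, S100A14 and IVL. PFN1, TUBB4B, ACTB and MSN passed in 2 and DSP in 3, always with the same sign. On Cy5 arrays alone TMSB10 (limma adjusted p = 0.0647), PERP (0.0718) and S100A14 (0.0749) missed the threshold. With empty spots as covariate TMSB10 (0.0689) and PERP (0.0565) missed it, and S100A14 passed (0.0357). With 1 cow left out, TMSB10 kept its call in 14 of 14 fits, PFN1 in 11, TUBB4B in 7, MSN in 5 and ACTB in 4.

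**Figure D5:**
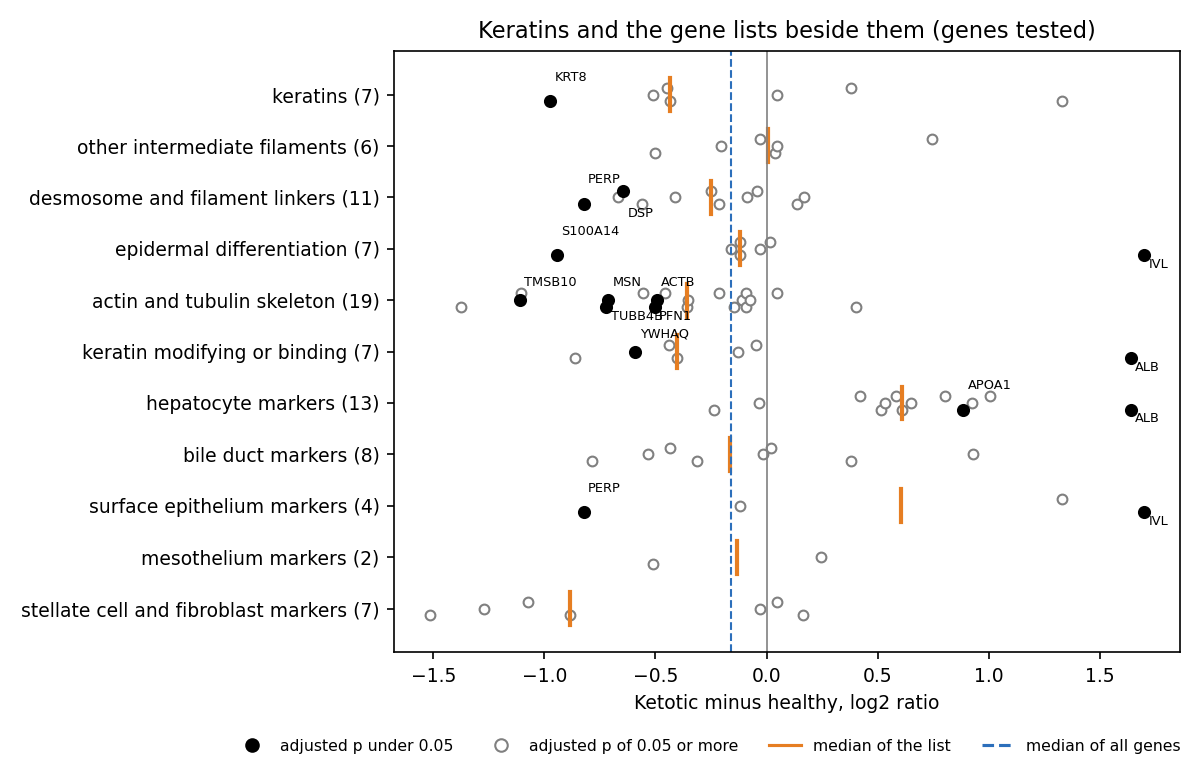
Ketotic minus healthy differences (x axis, log2 ratio) of the keratins and of the gene lists beside them, 1 point per gene, with the number of genes tested in brackets; filled and named points passed at adjusted p under 0.05, the orange bar is the list's median and the dashed line the median of all genes (-0.16). Among the keratins KRT8 is the filled point; the actin and tubulin list holds 5 filled points, all below 0.

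Of 7 tested genes listed as modifying or binding keratins, 1 rose and 1 fell, where 0.992% of all genes rose and 11.1% fell. Their median difference was -0.40. The 14-3-3 protein YWHAQ, of the family that binds phosphorylated KRT18, fell by 0.59 (SE 0.162, limma adjusted p = 0.0288), a call lost without ketotic cow 2 or healthy cow 1, 2, 3 or 6. Albumin (ALB), a secreted plasma protein placed in this list and in the hepatocyte list, rose by 1.64 (SE 0.428, adjusted p = 0.0233). It is the 1 riser counted here and is counted again among the hepatocyte markers. None of the other genes of this list rose. The chaperone HSPA8 missed the threshold at -0.86 (limma adjusted p = 0.0858) in the fit of all cows. It passed at -1.04 (0.0233) once healthy cow 7 was dropped, making 2 fallers among the 7 genes. That fit called 17% of all genes lower. Across the other settings between 0 and 4 genes of this list fell, and 0 or 1 rose. YWHAQ passed in 3 and ALB in 4 of the 6 scalings; with all arrays at 1 spread ALB stood at 0.03.

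Hepatocytes and bile duct cells are the main cells that carry keratins in liver. Of 13 hepatocyte markers, 2 rose, ALB and APOA1 (0.89, SE 0.222, limma adjusted p = 0.0200), and none fell, where 0.992% of all genes rose and 11.1% fell, with a median difference of 0.61; the list's median per cow was 5.61 to 7.38 in ketotic and 3.14 to 7.36 in healthy cows. The list has no settled direction: with all arrays at 1 spread its median was -0.34, 0 of its genes rose, and APOA1 stood at 0.04. With empty spots as covariate the median was -0.01, and 0 genes rose there, with quantile normalisation (median 0.24), with the mean trend and on Cy5 arrays alone. Without healthy cow 7 the median was 0.20, and APOB fell (-1.42, adjusted p = 0.0465), where 17% of all genes fell. The bile duct list had a median difference of -0.16 and ran per cow from -0.19 to 1.18 in ketotic and from -0.14 to 1.30 in healthy cows. Of 7 stellate cell and fibroblast genes, 0 passed, against 12% of all genes, and 1 at an unadjusted p under 0.05, against 27.5%. Their median difference was -0.89. Per cow they ran from -3.67 to -2.21 in ketotic and from -3.30 to 0.63 in healthy cows, highest in healthy cow 7. Without that cow 1 of them, decorin (DCN), fell (-0.59, adjusted p = 0.0487), where 17% of all genes fell. Of the 2 genes tested from the mesothelium list, KRT18 and UPK3B, 0 passed, where 12% of all genes passed. Hepatocytes carry KRT18 too, so it does not mark mesothelium here. UPK3B, a uroplakin, had a difference of 0.24 (adjusted p = 0.655). The part of these cells in the KRT8 difference was not tested.

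Of the 5239 other genes with a value in all 14 cows, those whose log2 ratios followed KRT8 most closely were TMEM259 (r = 0.952), TMED4 (0.931), SMAD2 (0.930), BANF1 (0.928) and GNAI2 (0.926). TMED4 is a cargo receptor of the early secretory pathway, SMAD2 a signal carrier of TGF-beta receptors, BANF1 a chromatin protein of the nuclear envelope and GNAI2 an inhibitory G protein subunit. Without healthy cow 7 their correlations were 0.922, 0.926, 0.886, 0.915 and 0.880. KRT18, the filament partner, correlated with KRT8 at 0.716 over the same 14 cows, and at 0.579 without healthy cow 7. For KRT14, over 11 cows and 5656 genes, the closest were VSIG2 (0.909), AMH (0.905), LOC338050 (0.895), LDB1 (0.894) and the T cell co-receptor CD4 (0.887), and without healthy cow 7 they stood at 0.888, 0.927, 0.922, 0.893 and 0.863. These correlations were picked as the highest over all genes with values and carry no test; the values share arrays, centring and the group difference.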

How the data were processed

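Liver RNA of 7 ketotic and 7 healthy cows was measured against a common reference on 28 two-colour arrays. The values deposited by the authors are log2 ratios per spot; the steps behind them are not given in the sources used here, and no intensities were used. The sign of arrays with Cy3 liver was turned; the label fields of 1 ketotic array name Cy5 for both channels, and its title was followed. Deposited array medians ran from -1.05 to 2.16, so each array was centred on its median. Values at 16.61 (6245, the log2 of a ratio of 100000) and 103458 empty values were read as not measured. Of 27648 spots, neighbouring pairs (median r 0.851) were averaged to probes, a cow's 2 arrays to 1 value, and probes to genes. The design text gives fewer elements per array. Symbols came from the platform annotation, 8620 of them updated by gene ID, and 5074 probes had no symbol. Precision is limited by the number of cows; signal above background is unknown.

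Groups were compared with limma 3.58.1 (lmFit and eBayes, in R 4.3.3), two-sided, with Benjamini-Hochberg adjustment over 6958 genes and a threshold of 0.05. Exact permutation tests over cows were run beside this. The fit was also run on simulated data. Those held independent noise for each gene, no cow like healthy cow 7 and no wider spread in ketotic cows. They therefore do not check the threshold for these data. Replicate numbers only name cows. Named were all keratins, up to 6 passing genes per list and the 5 genes closest to KRT8 and to KRT14; the other genes were named after their values were seen. Members and lists were chosen with earlier results of these data known. Figures were drawn with matplotlib 3.10.9.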

Additional observations from a re-analysis of the deposited data

Results flagged for a closer look

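Of 58 groups of per-cow values searched, 5 held a cow far from the others of its group, where chance gives about 1 in 20 groups, or 2.9; 3 of the 5 were healthy cow 7. KRT14 was 3.30 in ketotic cow 7, the highest of 5 ketotic cows, with the nearest at 1.69. TMSB10 was -3.64 in ketotic cow 5, the lowest of 7, with the nearest at -2.89. In healthy cow 7, DSP was -0.16, the lowest of 7 healthy cows (nearest 0.71), MSN was -1.13, the highest (nearest -2.02), and TMEM259 was 1.17, the highest (nearest 0.38).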

How the results depend on the processing

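The comparisons were repeated under 16 other settings, 2 of them added after seeing the data, and with each of the 14 cows left out. No paired analysis was possible because the replicate numbers only name cows and pair none across the groups. KRT8 was negative in each of these fits. It passed in 13 of the 16 settings and in 14 of 14 leave-outs (-1.06 to -0.83); it missed the threshold with arrays scaled to 1 spread (-0.47), on Cy5 arrays alone (-0.87) and with empty spots as covariate (-0.77), and in these 3 fits 0 keratins passed. KRT14 passed beside KRT8, making 2, when 1 measured array sufficed (1.69) and with weights per cow (1.40); it ran from 1.14 to 1.59 over the 9 leave-outs that kept enough cows. On values as deposited, where the median gene stood at -0.58, 3 keratins passed, KRT8, KRT17 and KRT18. The liver over reference count, 6, was 3 when every cow needed a value, since fewer genes were tested, and 4 to 7 with 1 cow left out. KRT8 minus KRT18 was -0.59 to -0.35 with 1 cow left out, -0.36 on Cy5 arrays and -0.23 with 1 spread.

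KRT15 turned sign as deposited (difference -0.031, liver over reference -0.37) and over leave-outs (difference -0.16 to 0.83, liver over reference -0.40 to 0.61), where either of its 2 probes could drop out. The KRT25 difference turned as deposited (-0.32), with 1 spread (-0.11), quantile normalisation (-0.14), Cy5 arrays (-0.61), weights (-0.25) and the covariate (-0.67), and over leave-outs (-0.30 to 0.41). The causes were not tested. Over all genes, 69 were higher and 769 lower; centring on probes measured on all arrays gave 119 higher and 516 lower, values as deposited 11 and 2466, 1 spread 38 and 483, quantile normalisation 33 and 479, Cy5 arrays 1 and 8, the covariate 8 and 137, weights 171 and 1204, leaving out healthy cow 7 114 and 1167, and leaving out healthy cow 6 34 and 502. Thin spots limit KRT4, KRT14, KRT20 and KRT25.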
